A study of Oryza sativa Japonica Group with 10 samples.

Results

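Late embryogenesis abundant (LEA) proteins, dehydrins, abscisic stress-ripening (ASR) proteins and a family named after the root cap were followed in the roots of rice seedlings. The genes were chosen by their description in the deposited table, as rows that mention late embryogenesis, dehydrin, abscisic stress-ripening, root cap or rab16. The rule found 37 of 33486 rows: 6 dehydrins, 6 ASR genes, 8 genes described as root cap and late embryogenesis related (the RCLEA family) and 17 other LEA genes. No description held rab16. LEA proteins build up late in seed maturation, and in leaves and roots under drought, salt, cold or the hormone abscisic acid (ABA). They are very hydrophilic, mostly unfolded in solution, and are thought to protect proteins and membranes when cells lose water. The root cap is the tissue that covers the growing tip, senses gravity, secretes mucilage and sheds cells into the surroundings.

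Polyadenylated RNA was sequenced from cultivar Nipponbare, a japonica reference rice, in 10 libraries, each from a pool of 6 plants. Seedlings that had germinated for 5 days and were 12 days old were moved to Hoagland nutrient solution, kept with shoot and root both lit, and sampled 6 or 2 days later. The groups were root tip on day 6 (3 libraries), root tip on day 2 (3 libraries), mature root on day 6 (2 libraries) and mature root on day 2 (2 libraries). The tip sample comprised meristem and elongation zone, and mature root was the rest of the root system. Plant age, days in solution and sampling occasion cannot be told apart, and in such tissue pieces fewer cells of a type and less RNA per cell cannot be told apart either.

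Library totals were 1428128 to 2560074 counts for tips on day 6 and 986907 to 2001408 on day 2, against 2648858 to 3286439 and 2161392 to 2776544 for mature root. Levels are CPM, counts scaled by TMM to a common library total, so that 3 counts correspond to 0.809 to 2.69 CPM. The tissue labels were set against marker lists. A photosynthesis list took 0.00903% to 0.0243% of the counts in tip libraries and 0.323% to 0.674% in mature root. In the tissue test described below, over both days, 30 of its 31 tested rows were lower in the tip and 0 higher. Over all tested rows these shares were 9.02% and 3.18%. Of its 61 rows, 8 had no count in the tip and 8 none in mature root. The lists of dividing cells (1.19% to 1.74% in the tip, 1.06% to 1.43% in mature root) and of secondary wall and xylem (0.199% to 0.254%, against 0.201% to 0.372%) overlapped between tissues, as did that of endodermis, exodermis and suberin (0.0718% to 0.106%, against 0.104% to 0.154%). For dividing cells the tissue test called 7 of 167 tested rows higher in the tip and 5 lower. It called 0 higher and 9 lower of 52 for secondary wall and xylem, and 2 and 10 of 37 for endodermis, exodermis and suberin. Root tip day 2 replicate 1, the shallowest library, stood apart from the other tips of day 2 in the root cap genes.

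The classes differed in how the tip compared with mature root. The 4 tested ASR genes and a dehydrin were lower in the tip. All 7 tested root cap genes had positive differences, of which 1 passed the test, and 9941 of all 19234 tested rows were positive. The 7 root cap genes are not independent values, as all 7 had their highest day 2 tip level in root tip day 2 replicate 1. Of the 37 genes, 20 had enough counts to be tested. In edgeR's quasi-likelihood test over all 19234 tested rows, as the mean of both days, 6 of these 20 were lower in the tip and 2 higher at a Benjamini-Hochberg adjusted p under 0.05. The same test called 9.02% of all tested rows lower and 3.18% higher, or 1734 and 611 rows. These shares depend on single libraries: without mature root day 6 replicate 1, 747 rows were lower and 98 higher of 21714 tested. The median log2 fold change was 0.87 over the 20 genes, between genes at 0.28 and 1.46, and 0.05 over all tested rows. With 1 library left out, the median of the tested members ran from 0.19 (root tip day 6 replicate 2) to 1.62 (mature root day 2 replicate 2). Without the filter on low counts it was -0.10 over all 37 genes and -0.05 over all rows. In 5 of the 20 genes all tip libraries lay below all mature root libraries, as in 7.34% of all tested rows, and in 0 of 20 above, as in 3.87%.

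**Figure D1:**
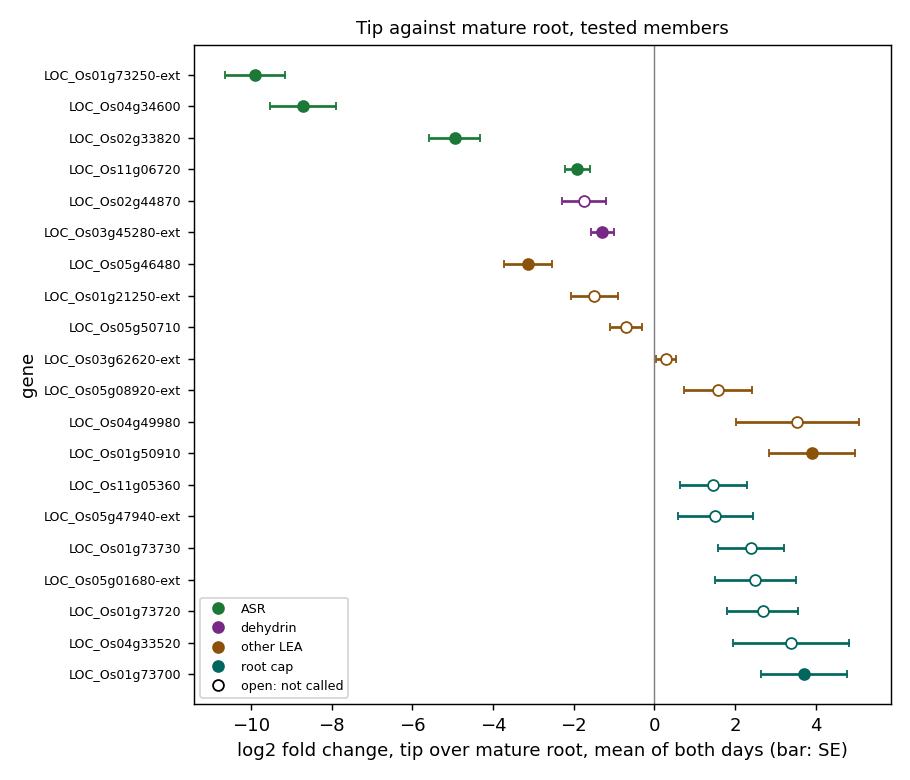
Log2 fold change of the tip over mature root (mean of both days, horizontal axis) for the 20 tested genes. Bars are 1 SE, taken as the absolute log2 fold change over the square root of the test's F. Points are filled where the adjusted p was under 0.05. For LOC_Os01g73250-ext, with no count in tips, point and bar do not give a measured ratio. The 4 ASR genes lie between -9.89 and -1.91, both dehydrins are below 0, and the 7 root cap genes lie between 1.46 and 3.7 with only LOC_Os01g73700 filled.

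ASR proteins are small hydrophilic plant proteins, named for their induction by ABA, water stress and fruit ripening. All 4 tested ASR genes were lower in the tip, with a median log2 fold change of -6.84. LOC_Os01g73250-ext had no count in any of the 6 tip libraries, and had 76.4 and 60.4 CPM in mature root on day 6 and 45.4 and 43.1 CPM on day 2. With a floor of 3 counts over the tip libraries it was at least 195-fold lower in the tip (627 counts in mature root, adjusted p = 3.04e-04 in edgeR's quasi-likelihood test). This gene was thus detected in mature root alone, at the depth of these libraries.

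LOC_Os04g34600 was close to that pattern. Its 6 tip libraries held 2 counts in all, both in day 2 replicate 1 (1.8 CPM), against 883 counts in mature root. The mature root libraries had 39.7 and 56.1 CPM on day 6 and 94.6 and 139 CPM on day 2. The ratio of mature root to tip was 413, and its 95% Clopper-Pearson interval, which covers counting error, ran from 114 to 3413 (adjusted p = 3.04e-04 in the same test). Among all 19234 rows these ASR genes ranked 31 and 33 by p.

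LOC_Os02g33820 was detected in every library. It had 12.3, 0.782 and 3.59 CPM in tips on day 6 and 0.898, 1.47 and 2.14 CPM in tips on day 2, against 248 and 117 CPM in mature root on day 6 and 37.8 and 51.8 CPM on day 2. The tissues did not overlap, and within the tip the day 6 replicate 1 library was far above the others. This gave a log2 fold change of -4.95 (SE 0.63, adjusted p = 7.64e-04).

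The ASR gene with the highest level in the tip was LOC_Os11g06720. Tips had 105 (replicate 1), 60.6 and 192 CPM on day 6 and 301, 281 and 274 CPM on day 2, while mature root had 742 and 632 CPM on day 6 and 599 and 803 CPM on day 2. The 3 tip libraries of day 6 lay below the 3 of day 2, and all 6 lay below mature root. Its log2 fold change was -1.91 (SE 0.32, adjusted p = 3.23e-03). The other ASR genes, LOC_Os01g72900 and LOC_Os01g72910, were not tested, with 10 and 12 counts over all libraries. In ASR genes the difference from mature root therefore ranged from 3.76-fold in the gene with the highest tip level to absence of counts. The photosynthesis list moved with tissue in the same direction, and its part in the ASR differences was not tested.

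Dehydrins are the LEA group with lysine-rich segments that can bind membranes, and their genes often respond to cold, drought and ABA. LOC_Os03g45280-ext was the dehydrin with most counts. It had 249, 217 and 269 CPM in tips on day 6 and 416, 401 and 419 CPM in tips on day 2, against 384 and 501 CPM in mature root on day 6 and 690.0 and 2044 CPM on day 2. The tissues overlapped, since mature root day 6 replicate 1 lay below the day 2 tips, but within each day every tip library lay below both mature root libraries. The log2 fold change was -1.29 (SE 0.29, adjusted p = 0.0151). It was -0.80 without mature root day 2 replicate 2, the highest library, and no longer called (adjusted p = 0.135). Leaving out mature root day 6 replicate 2 also ended the call (adjusted p = 0.0564), as did a block for the replicate number (adjusted p = 0.0566).

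LOC_Os02g44870, the other tested dehydrin, had 18.5, 21.9 and 93.8 CPM in tips on day 6 and 37.7, 87.2 and 43.8 CPM in tips on day 2. Mature root had 526 and 119 CPM on day 6 and 72.4 and 105 CPM on day 2. On day 6 the tissues did not overlap, and on day 2 a tip library lay between the mature root libraries. The gene did not pass over both days (log2 fold change -1.75, SE 0.55, adjusted p = 0.0565), and passed on day 6 alone at -2.84 (SE 0.79, adjusted p = 0.0493). That call was lost in 8 of the 10 cases in which a library was left out, with an adjusted p of 0.0518 to 0.518, and with a block for the replicate number (adjusted p = 0.0734). Without mature root day 6 replicate 1 the day 6 value was -1.43. The remaining dehydrins have neighbouring identifiers, LOC_Os11g26750, LOC_Os11g26760, LOC_Os11g26780 and LOC_Os11g26790, and had 1 to 10 counts over all 10 libraries, none above 2.31 CPM. Of these, LOC_Os11g26790 held 9 counts over the tip and 1 over mature root libraries, and the 95% interval of the ratio, 9.63, reached from 1.33 to 422.

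**Figure D2:**
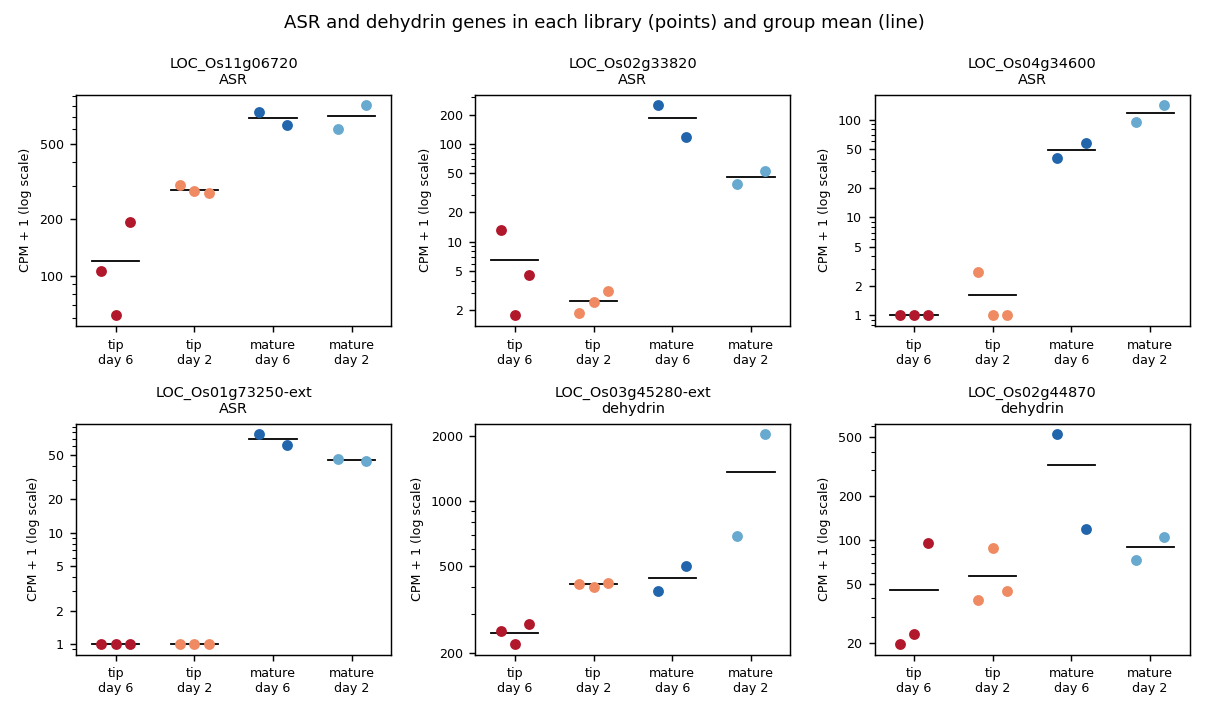
CPM + 1 on a log scale (vertical axis) in each library of tip and mature root on day 6 and day 2, for the 4 tested ASR genes and both tested dehydrins, with a line at the arithmetic mean of the group. LOC_Os01g73250-ext has no count in any tip library, and LOC_Os03g45280-ext is highest in 1 mature root library of day 2, at 2044 CPM.

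The other LEA genes did not move together. Of 7 tested, 1 was higher and 1 lower in the tip, with a median log2 fold change of 0.28. The gene that was lower, LOC_Os05g46480, is described as a group 3 LEA protein, a group built of short repeats that can fold into helices on drying. It had 0, 1.17 and 0.449 CPM in tips on day 6 and 7.18, 2.2 and 6.42 CPM in tips on day 2, against 8.93 and 16.2 CPM in mature root on day 6 and 29.2 and 14.5 CPM on day 2. All tip libraries lay below all mature root libraries, and the 3 tips of day 6 had 4 counts in all. Its log2 fold change was -3.14 (SE 0.6, adjusted p = 6.19e-03). On day 6 alone it was -4.22 (SE 0.91, adjusted p = 0.02). The day 6 call was lost without root tip day 6 replicate 3, without either mature root library of day 6 and with a block for the replicate number (adjusted p 0.051 to 0.0889).

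The gene that was higher, LOC_Os01g50910, carries the same group 3 description. Tips had 86.2, 5.86 and 30.5 CPM on day 6 and 29.6, 8.06 and 25.7 CPM on day 2. Mature root had 0 and 1.08 CPM on day 6 and 10.8 and 0 CPM on day 2, so the tissues overlapped through mature root day 2 replicate 1. In log2 terms the tip was 3.9 above mature root (SE 1.07, adjusted p = 0.0327). This call was lost without any 1 of 6 libraries, namely both of mature root day 6, replicate 2 of mature root day 2, replicate 1 of root tip day 6 and replicates 1 and 3 of root tip day 2. The adjusted p was then 0.0514 to 0.155. It was not lost without mature root day 2 replicate 1, where the log2 fold change was 7.14. Another group 3 gene, LOC_Os04g52110, had 11 counts in tips and 10 in mature root and was not tested.

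LOC_Os03g62620-ext varied little between libraries. It ranged from 300.4 to 404 CPM over the 6 tip libraries, with a median of 360.1 CPM, and had 319 and 303 CPM in mature root on day 6 and 273 and 262 CPM on day 2. The log2 fold change was 0.28 (SE 0.25, adjusted p = 0.499). LOC_Os05g50710 had 347, 109 and 115 CPM in tips on day 6 and 142, 223 and 183 CPM on day 2, against 803 and 378 CPM in mature root on day 6 and 117 and 199.9 CPM on day 2. Its 2 highest libraries were thus mature root of day 6 replicate 1 and replicate 2, and the tissues overlapped (log2 fold change -0.71, SE 0.4, adjusted p = 0.255).

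The last 3 tested LEA genes had lower counts and did not pass. LOC_Os01g21250-ext averaged 7.13 ± 7.37 CPM over 6 tip libraries (SD) and 15.7 ± 6.59 CPM over 4 of mature root (SD). LOC_Os05g08920-ext stood at 18.2 ± 24.8 CPM in tips and 6.23 ± 4.51 CPM in mature root, and root tip day 6 replicate 2 alone had 67.2 CPM. LOC_Os04g49980, described as group 1, held 36 counts in tips and 1 in mature root, and the 95% interval of the ratio, 38.5, reached from 6.49 to 1563. Of these counts 35 came from tips of day 6, at 6.16, 8.6 and 2.25 CPM, against 0.898, 0 and 0 CPM in tips of day 2. Its tissue difference did not pass (log2 fold change 3.54, SE 1.52, adjusted p = 0.148), and the spread between libraries is not covered by that counting interval. The 10 other LEA genes that were not tested had 1 to 39 counts over all libraries.

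**Figure D3:**
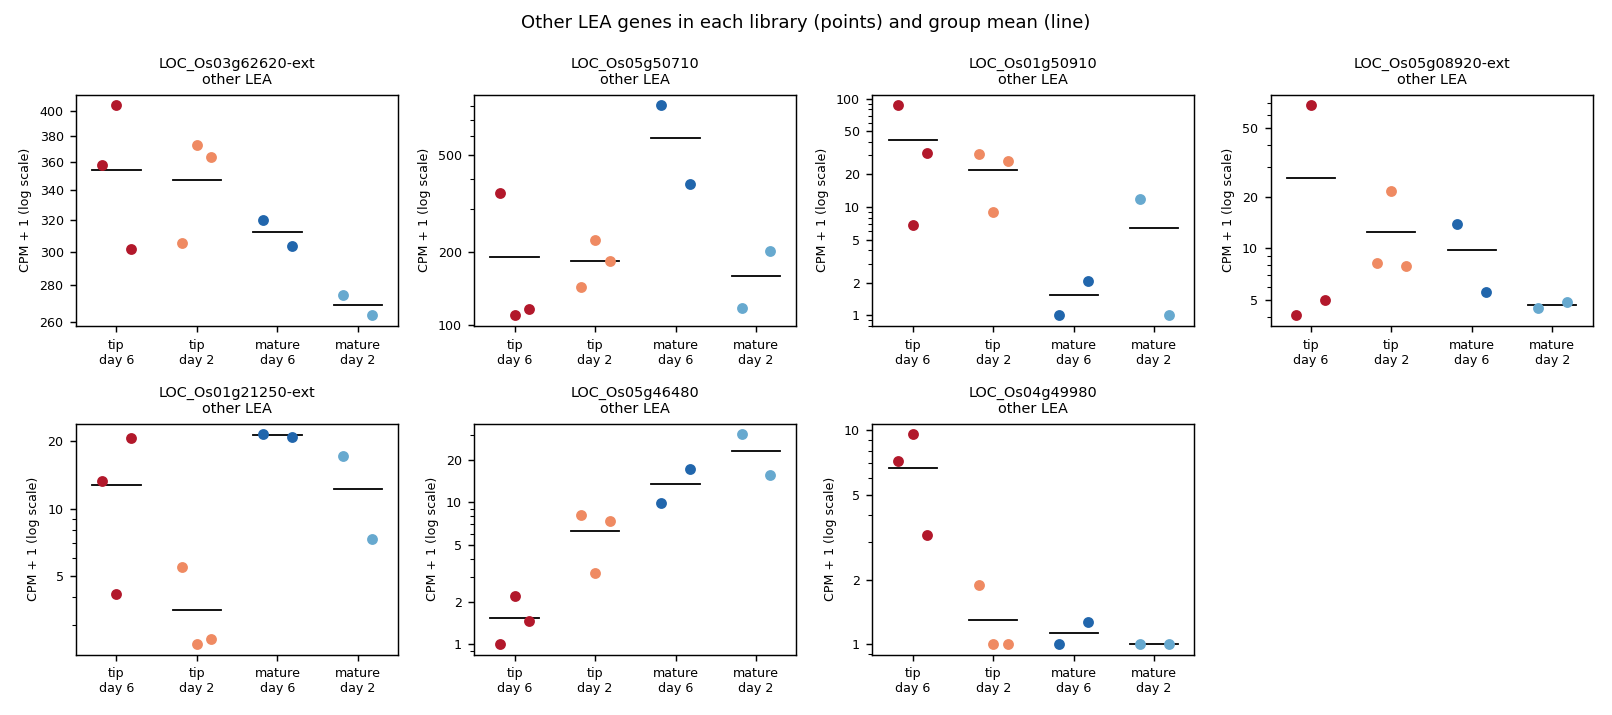
CPM + 1 on a log scale (vertical axis) in each library of tip and mature root on day 6 and day 2, for the 7 tested LEA genes outside the other classes, with a line at the arithmetic mean of the group. LOC_Os05g46480 is lower in all tip libraries than in mature root, and LOC_Os03g62620-ext stays between 262 and 404 CPM in all 10 libraries.

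The root cap genes were the most uneven class. Their gene-wise biological coefficient of variation, the spread between replicates beyond counting error, had a median of 0.868 over the 7 tested genes, against 0.556 over all tested rows, 0.512 for ASR genes, 0.512 for dehydrins and 0.608 for other LEA genes. The 8 genes summed to 43.1, 137 and 413 CPM in tips on day 6 and to 374, 26.4 and 28.9 CPM in tips on day 2. Mature root had 46.9 and 95.5 CPM on day 6 and 6.67 and 14.5 CPM on day 2. Among tips of day 2, replicate 1 was thus far above the other libraries, and among tips of day 6 replicate 1 was the lowest.

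Among tips of day 2 the unevenness was shared by the genes. All 7 root cap genes with at least 30 counts had their highest day 2 tip level in replicate 1. On day 6 replicate 3 held the highest tip level of 4 of them and replicate 2 that of 3. There LOC_Os04g33520 alone had 279 of the 413 CPM summed in replicate 3. LOC_Os01g73700, LOC_Os01g73720 and LOC_Os01g73730 have neighbouring identifiers, and close copies in a family can share reads, so values of single genes are uncertain. Replicate 1 of day 2 did not stand apart in the list of dividing cells, with 1.62% of its counts. The part of the low depth of this library in these values was not tested.

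LOC_Os01g73700 was the root cap gene that passed. Tips had 13.9, 18.4 and 7.18 CPM on day 6 and 97, 4.4 and 2.67 CPM on day 2, against 7.15 and 5.4 CPM in mature root on day 6 and 0.635 and 0 CPM on day 2. Within each day every tip library lay above both mature root libraries, while across days they overlapped. The log2 fold change was 3.7 (SE 1.06, adjusted p = 0.0396). It was 2.08 without root tip day 2 replicate 1 and no longer called (adjusted p = 0.0781). The call was also lost without root tip day 6 replicate 2 and without any 1 of the 4 mature root libraries (adjusted p 0.068 to 0.161).

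LOC_Os04g33520 had the highest CPM in any library within the family. Tips had 3.08, 7.04 and 279 CPM on day 6 and 51.2, 0 and 1.07 CPM on day 2, against 10.7 and 8.9 CPM in mature root on day 6 and 1.91 and 0.968 CPM on day 2. Day 6 replicate 3 thus carried most of the tip signal, and its 4 lowest tip libraries lay within or below the range of mature root. The log2 fold change was 3.38 (SE 1.43, adjusted p = 0.139). It was 1.29 without that library and 1.03 without root tip day 2 replicate 1.

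LOC_Os01g73730 had 12.3, 56.7 and 35 CPM in tips on day 6 and 119, 5.86 and 13.9 CPM in tips on day 2. Mature root had 16.1 and 42.1 CPM on day 6 and 1.91 and 1.94 CPM on day 2. On day 2 the tissues did not overlap and on day 6 they did, and the log2 fold change over both days was 2.4 (SE 0.83, adjusted p = 0.0774). LOC_Os01g73720 had a log2 fold change of 2.68 (SE 0.89, adjusted p = 0.0683), at 12.6 ± 10.5 CPM over the 6 tip libraries (SD) and 2.07 ± 2.15 CPM over the 4 of mature root (SD). The other 3 tested genes, LOC_Os11g05360, LOC_Os05g47940-ext and LOC_Os05g01680-ext, had log2 fold changes of 1.46, 1.51 and 2.5 and did not pass. LOC_Os01g73710, whose identifier lies next to those named above, had 2 counts in tips and 4 in mature root.

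**Figure D4:**
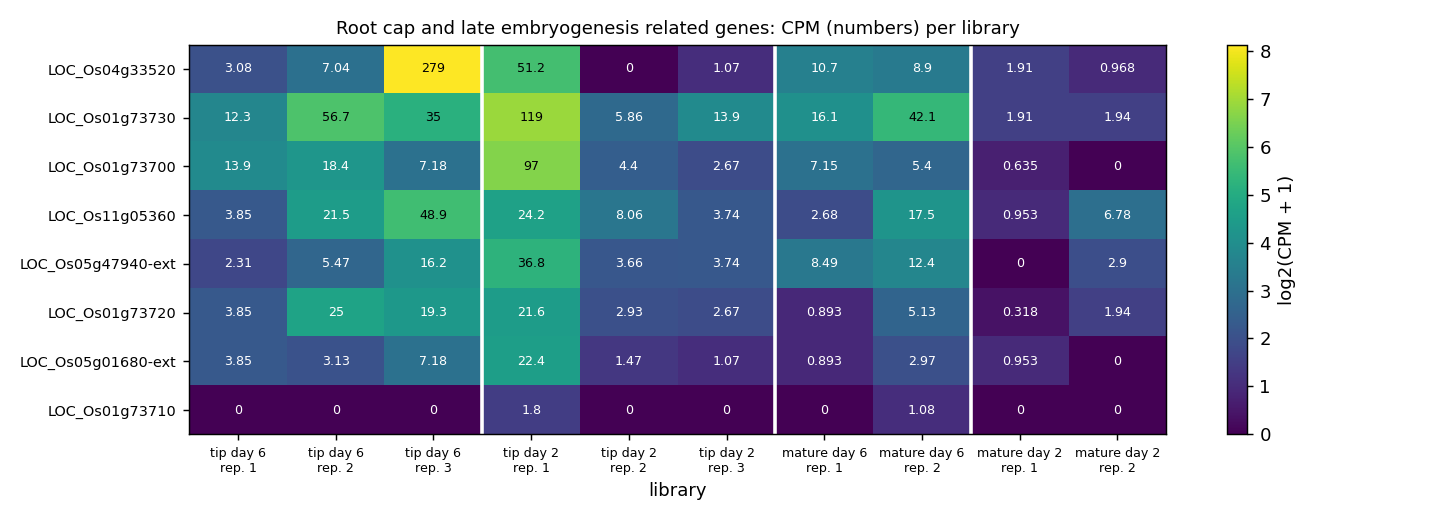
CPM of the 8 root cap genes (rows) in each library (columns), printed in the cells and coloured by log2(CPM + 1), with white lines between tip day 6, tip day 2, mature root day 6 and mature root day 2. Root tip day 2 replicate 1 is high in all 7 genes with at least 30 counts relative to the other day 2 libraries, and LOC_Os04g33520 reaches 279 CPM in root tip day 6 replicate 3.

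Taken per length of summed exons, the order of levels was headed by the ASR gene LOC_Os11g06720 and the dehydrin LOC_Os03g45280-ext in each tissue and on each day. In tips on day 6 LOC_Os11g06720 averaged 137 ± 76.4 CPM per kb and LOC_Os03g45280-ext 133 ± 14.3 CPM per kb (SD, n = 3), which overlapped within their SD. In tips on day 2 they averaged 327 ± 16 and 224 ± 5.18 CPM per kb (SD, n = 3), a difference beyond their spread. LOC_Os03g62620-ext was next in the tip, at 83.8 ± 12.3 CPM per kb on day 6 and 82.1 ± 8.73 on day 2, below the dehydrin beyond the spread on both days. LOC_Os05g50710 followed at 71.3 ± 50.9 CPM per kb on day 6 and 68.4 ± 15.2 on day 2, and overlapped with LOC_Os03g62620-ext on each day.

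In mature root on day 6 LOC_Os11g06720 averaged 788 ± 89.2 CPM per kb and LOC_Os03g45280-ext 240.3 ± 44.8 CPM per kb (SD, n = 2), which differed beyond their spread. LOC_Os02g44870 at 235 ± 210.1, LOC_Os05g50710 at 221 ± 112 and LOC_Os02g33820 at 211 ± 108 CPM per kb came next, and from the dehydrin LOC_Os03g45280-ext down these neighbours overlapped. On day 2 LOC_Os11g06720 averaged 804 ± 165 CPM per kb and LOC_Os03g45280-ext 743 ± 520.2 CPM per kb in mature root (SD, n = 2), and these overlapped, the dehydrin with 1 library at 2044 CPM. LOC_Os02g44870 was next on day 2, at 64.5 ± 16.6 CPM per kb, below both beyond the spread.

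**Figure D5:**
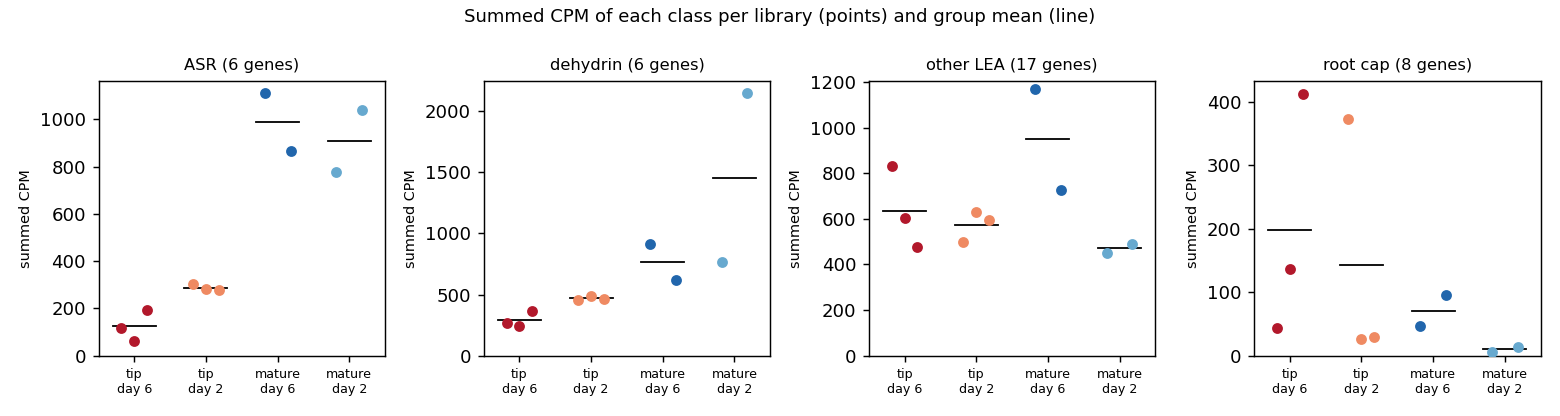
Summed CPM of the genes of each class (vertical axis, starting at 0) in each library of tip and mature root on day 6 and day 2, with a line at the group mean. ASR sums are 62.1 to 304 CPM in tip libraries and 777 to 1109 CPM in mature root, while root cap sums spread from 26.4 to 413 CPM within the tip.

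The tissue comparison was next made within each day. On day 6, 6 of the 20 tested genes were lower in the tip and 0 higher, against 5.75% and 1.33% of all tested rows. They were the 4 ASR genes, the dehydrin LOC_Os02g44870 and the group 3 gene LOC_Os05g46480. On day 2, 3 of 20 were lower and 0 higher, against 1.07% and 0.0832% of all rows. These were the ASR genes LOC_Os01g73250-ext, LOC_Os04g34600 and LOC_Os02g33820, and the last of them lost its day 2 call in 6 of the 10 cases in which a library was left out. Without mature root day 6 replicate 1, only LOC_Os01g73250-ext and LOC_Os04g34600 were called lower on day 6. At an unadjusted p under 0.05 the tissue contrast had 9 of 20 genes on day 6 and 12 of 20 on day 2, of 4908 and 3212 rows in all.

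The ASR gene LOC_Os11g06720 had a log2 fold change of -2.53 (SE 0.45, adjusted p = 0.0102) on day 6 and -1.3 (SE 0.45, adjusted p = 0.178) on day 2. The difference between days was -1.23 (SE 0.64) and did not pass (adjusted p = 0.552). LOC_Os01g73700 stood at 1.07 (SE 1.23) on day 6 and 6.34 (SE 1.73) on day 2. LOC_Os01g73730 stood at 0.26 (SE 1.03) on day 6 and 4.53 (SE 1.32) on day 2. Neither passed on either day, and their differences of -5.27 (SE 2.02) and -4.28 (SE 1.59) did not pass (adjusted p = 0.513 each). The test of the difference called 0 of 20 genes and 0 of all rows (0%), 3 of 20 genes had an unadjusted p under 0.05, and DESeq2 called 0 of the 20 and 94 of all rows.

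Change with time was examined within each tissue, day 6 against day 2. In tips, edgeR's quasi-likelihood test called 0 of 20 genes and 0% of all rows, with 4 of 20 genes and 2063 of 19234 rows at an unadjusted p under 0.05. DESeq2 called 0 of the 20 genes and 130 rows. The median log2 fold change was 0.01 over the 20 genes and 0.03 over all rows. The 4 genes in tips included LOC_Os11g06720 at -1.26 (SE 0.41) and LOC_Os05g46480 at -2.97 (SE 0.89), both with an adjusted p of 0.425. LOC_Os04g49980, at 4.25 (SE 1.39, adjusted p = 0.425), and LOC_Os01g21250-ext, at 2.24 (SE 0.82, adjusted p = 0.434), were the others.

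In mature root the test called 0 of 20 genes and 0% of all rows as well, with 5 of 20 genes and 2072 rows at an unadjusted p under 0.05, and DESeq2 called 0 of the 20 and 375 rows. The median was 1.49 over the 20 genes and -0.03 over all rows. All 7 tested root cap genes had positive values, with a median of 2.68, and 9371 of all 19234 tested rows were positive. LOC_Os01g73730 stood at 3.89 (SE 1.32, adjusted p = 0.334), with 16.1 and 42.1 CPM on day 6 and 1.91 and 1.94 CPM on day 2. LOC_Os05g50710 stood at 1.9 (SE 0.65, adjusted p = 0.334). The ASR gene LOC_Os02g33820 stood at 2.02 (SE 0.87, adjusted p = 0.423) and the root cap gene LOC_Os01g73700 at 3.9 (SE 1.72, adjusted p = 0.434). LOC_Os02g44870, at 1.86 (SE 0.88, adjusted p = 0.478), was not among the 5 genes. The dehydrin LOC_Os03g45280-ext stood at -1.63 (SE 0.47, adjusted p = 0.291). The tested dehydrins thus had opposite signs, but neither passed. Each had 1 mature root library far above its partner. These were 526 against 119 CPM on day 6 for LOC_Os02g44870 and 2044 against 690 CPM on day 2 for LOC_Os03g45280-ext. The tests over time and over tissue share these mature root libraries.

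Genes of the surrounding ABA and desiccation pathways were read from lists chosen by description. ABA is made through zeaxanthin epoxidase and aldehyde oxidases, and in its signalling group A protein phosphatases 2C act as repressors. Of the 16 rows of the ABA synthesis and signalling list 7 were tested, and 2 were lower and 0 higher in the tip over both days, with a median log2 fold change of -1.32. Over all tested rows 9.02% were lower and 3.18% higher. The list median was -2.09 on day 6, when 2 were lower and 0 higher, against 5.75% and 1.33% of all tested rows. On day 2 it was 0.03, with 4 values positive and 3 negative. There 0 passed, and 2 had an unadjusted p under 0.05, as had 3212 of all 19234 rows. The difference between days called 0 of the 7, with 1 at an unadjusted p under 0.05, as had 1821 of all rows. Both genes lower over both days were described as aldehyde oxidases, an enzyme class with roles beyond ABA synthesis. LOC_Os10g04860 averaged 12.9 ± 7.2 CPM over the 6 tip libraries (SD) and 67.8 ± 48.5 CPM over the 4 of mature root (SD), or -2.41 on the log2 scale (SE 0.6). LOC_Os03g57720-ext stood at 73.3 ± 30.5 CPM in tips and 226 ± 160 CPM in mature root. The zeaxanthin epoxidase gene LOC_Os04g37619 was lower on day 6, with a log2 fold change of -3.73 (SE 0.96, adjusted p = 0.0393). Over both days it averaged 8.5 ± 6.89 CPM in tips and 40.9 ± 66.6 CPM in mature root, where the SD exceeded the mean.

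The list of protein phosphatases 2C takes every row so described, whatever its group, so it is not a list of the group A repressors. Among its 56 tested rows, 8 were lower and 1 higher in the tip over both days, with a median of -0.32, against 9.02% and 3.18% of all tested rows. On day 6, 5 were lower and 0 higher, against 5.75% and 1.33% of all tested rows. On day 2 none of the 56 passed, against 1.07% lower and 0.0832% higher of all rows. There 8 of the 56 had an unadjusted p under 0.05, as had 3212 of all 19234 rows. LOC_Os02g13100 averaged 53.5 ± 25.3 CPM over the 6 tip libraries (SD) and 264 ± 19 CPM over the 4 of mature root (SD), or -2.34 on the log2 scale (SE 0.39, adjusted p = 3.34e-03). LOC_Os02g39480 was the member higher in the tip, at 11.2 ± 2.42 against 2.87 ± 1.79 CPM. The seed and desiccation list had 4 of 26 tested rows lower and 1 higher over both days, with a median of -0.61, beside the same 9.02% and 3.18% of all rows. Those lower were 2 caleosin related genes of oil bodies, LOC_Os06g14324 and LOC_Os02g50140-ext, the HVA22 gene LOC_Os11g05800 and the desiccation-related gene LOC_Os04g33150. The last averaged 10.1 ± 20.2 CPM in tips and 319 ± 389 CPM in mature root. Another HVA22 gene, LOC_Os10g09870-ext, was higher in the tip, at 68.3 ± 20.1 against 31.5 ± 17.6 CPM. HVA22 proteins are named after an ABA-induced barley gene.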

How the data were processed

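The authors deposited raw, whole-number counts for each gene row and library, with exon number and summed exon length, per the file headers. Bowtie, SAMtools 0.1.12a, Cufflinks 1.0.3 and TopHat 1.3.1 appear in the submitters' processing notes. The sources used here do not give the build, counting tool, strand use or the meaning of the ending -ext. No molecular identifiers are mentioned, so intervals and floors cover only counting error. Adjusted p-values rest on pools that the labels call independent. No sequences are shown.

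In R 4.3.3, edgeR 4.0.16 (limma 3.58.1) kept 19234 rows by filterByExpr (minimum count 10, total 15), applied TMM and fitted a quasi-likelihood model with a mean per group over all 10 libraries. Benjamini-Hochberg adjustment ran over all rows, with calls at 0.05. Each SE is the absolute log2 fold change divided by the square root of the test's F, not an error given by the model. Steps were tested on simulated counts. Members and lists were chosen with earlier results of these data known. Named genes are those called, the 3 with most CPM per class, and the smallest p per class, direction and contrast; a few more members were named after their values were seen. Alternatives were DESeq2 1.42.0 (test and size factors), library totals, no filter, 5 CPM in 2 libraries, the replicate block and leaving out each library.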

Additional observations from a re-analysis of the deposited data

Results flagged for a closer look

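In 39 sets of libraries (each tested gene in the 6 tip or the 4 mature root libraries, both days together), 11 had a library far from the others by Dixon's criterion. Its chance rate of about 1 in 20 holds for normally distributed values of 1 group. CPM of both days together are not such values, so the 11 cannot be set against that rate. A set with counts in only 1 library meets the criterion at any level. In tips, replicate 1 of day 2 stood out for the root cap genes LOC_Os01g73700 (97 CPM, next 18.4) and LOC_Os05g01680-ext (22.4 CPM, next 7.18), and for the ASR gene LOC_Os04g34600 (1.8 CPM, next 0), which is 2 counts. Root tip day 6 replicate 3 stood out for LOC_Os04g33520 (279 CPM, next 51.2). Root tip day 6 replicate 1 stood out for LOC_Os01g50910 (86.2 CPM, next 30.5) and LOC_Os02g33820 (12.3 CPM, next 3.59), and replicate 2 for LOC_Os05g08920-ext (67.2 CPM, next 20.5).

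In mature root, day 6 replicate 1 stood out for the dehydrin LOC_Os02g44870 (526 CPM, next 119) and for LOC_Os05g08920-ext (13 CPM, next 4.59). Mature root day 2 replicate 1 stood out for LOC_Os01g50910 (10.8 CPM, next 1.08), and day 6 replicate 2 for LOC_Os04g49980 (0.27 CPM, next 0), which is 1 count.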

How the results depend on the processing

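Over both days, the calls of the 4 ASR genes and LOC_Os05g46480 as lower in the tip held under all 16 alternatives. The number called lower was 6, and 5 to 7 under the alternatives. The number called higher was 2, but 6 without the filter on low counts, 4 with DESeq2 and 0 to 3 with 1 library left out. On day 6 the counts were 0 higher and 6 lower, and 2 were higher without the filter, 1 with DESeq2 and 0 to 1 with a library left out, when 2 to 6 were lower. On day 2 the numbers were 0 higher and 3 lower. There 4 were higher without the filter and 2 with DESeq2. Without the filter 1 gene was called higher over time in tips, 2 in mature root and 2 lower for the difference between days, against 0 each. Over all 33486 rows this setting called 535 higher over time in tips, 438 in mature root and 295 lower for the difference, also against 0 each. The cause was not tested. Over all rows the tissue contrast called 2345 over both days, 1361 on day 6 and 221 on day 2. Without the filter it called 4063, 2981 and 1734, and with DESeq2 3569, 2741 and 1034. With 1 library left out it called 845 to 2523 over both days, 113 to 1379 on day 6 and 42 to 312 on day 2. Over both days the count was 845 and 1363 without mature root day 6 replicate 1 and replicate 2, and 1337 and 1015 without those of day 2. On day 6 it was 113 and 818 without these libraries of day 6, 863 and 843 without those of day 2, and 379 and 748 without root tip day 6 replicate 2 and replicate 3. On day 2 it was 54, 42 and 64 without root tip day 2 replicate 1, 2 and 3, 91 and 93 without mature root day 6 replicate 1 and replicate 2, and 47 without mature root day 2 replicate 2.

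No pairing by replicate number was seen: deviations from the group mean correlated between -0.0447 and 0.023 over 13 same-numbered pairs. Of 6 tips, 2 matched their own number best on the other day. In a mature root group of 2 libraries the deviations mirror each other, so this check cannot exclude a pairing. With a replicate block 5 genes were lower and 2 higher over both days, 4 and 0 on day 6, 2 and 0 on day 2, and 1266, 579 and 135 rows were called in all. Depth limits the 17 genes that were not tested.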
